A study of Homo sapiens with 36 samples.

Results

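Protein kinase A is the main intracellular receptor of cyclic AMP, and 10 of its genes were followed here: the catalytic subunits PRKACA and PRKACB, the regulatory subunits PRKAR1A, PRKAR1B, PRKAR2A and PRKAR2B, the inhibitor peptides PKIA, PKIB and PKIG, and the anchor AKAP12. They were taken by symbol from the 26485 genes of the count files, and all 10 had a row in each of the 36 libraries. PKIA was picked for its higher level in total RNA of the UAU line, so its difference from control there is described without a test. How AKAP12 was picked among the anchoring proteins is not given in the sources used here, and its p-values are to be read with that in mind.

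The cells were the human breast cancer line MDA-MB-231, of the triple-negative kind, and their source is labelled a xenograft cell line. All 4 lines carried a CRISPR interference construct, which lowers transcription at a targeted gene, and an overexpression construct. In the isoswitch line the CRISPR interference was aimed at the GAU tRNA (the isoleucine tRNA whose anticodon is GAU) and the overexpressed RNA was the UAU tRNA (anticodon UAU, also for isoleucine). The UAU line had CRISPR interference against eGFP with the same overexpressed tRNA, the GAUi line had CRISPR interference against the GAU tRNA with a control overexpression construct, and the control line had the eGFP target with the control construct. Every group received cycloheximide, which stops ribosomes on their mRNA, at 100 µg/mL for 5 min. Each line gave total RNA, a low fraction (single ribosomes plus the lightest polysome peak) and a high fraction (the polysomes beyond it) from a gradient, with 3 libraries, A, B and C, for each of these 12 groups. The labels do not say that the libraries came from separate cultures or whether a line is a clone, and p-values then reflect just the spread among these libraries. The counts hold 3′ ends of polyadenylated RNA, and the 2 targeted tRNAs were not analysed here.

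The kinase is held inactive as a complex of a regulatory subunit dimer with catalytic subunits. Cyclic AMP binds the regulatory subunits and releases active catalytic subunits, and PKI peptides bind free catalytic subunits as pseudosubstrates, block them and carry them out of the nucleus. Type I regulatory subunits (PRKAR1A, PRKAR1B) are largely cytosolic, whereas type II subunits (PRKAR2A, PRKAR2B) are mostly tethered by A-kinase anchoring proteins, and loss of PRKAR1A in humans causes Carney complex.

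Library totals lay between 6679340 and 8973050 counts for total RNA, between 5310594 and 8234332 for the low fraction, and between 5192464 and 8974001 for the high fraction. Levels are given in CPM, counts per 1e6 counts after TMM scaling over all 36 libraries, and a level in a fraction is relative to the other RNA of that library. The mesenchymal genes of this line were present, with VIM at 2750 to 3720 CPM and CD44 at 303 to 386 CPM in total RNA, except SPARC at 0 to 0.961 CPM. The luminal markers ESR1 (0 to 0.15 CPM), PGR (0 to 0.824 CPM) and CDH1 (0 to 0.369 CPM) were at or near 0, while KRT18 (242 to 386 CPM), EPCAM (10.8 to 17.7 CPM) and ERBB2 (7.53 to 15.4 CPM) were present in total RNA, where the list of 6 summed to 272 to 411 CPM. Summed markers of fibroblasts (5 genes), leukocytes (5 genes) and endothelium (5 genes) did not exceed 5.68, 1.63 and 8.09 CPM in any library, with 2 or 3 genes of each list at 0 in every group. Mouse host cells cannot be told apart by gene symbol. Within total RNA of GAUi the libraries differed more among themselves than within the other total RNA groups, with a chi-square per degree of freedom over genes of 8.53 to 23.8 for its 3 pairs and of 1.79 to 3.73 for the other 9 pairs. In the fractions it was 2.48 to 15.8, and no pair of libraries agreed within counting noise.

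In control total RNA the 10 genes spanned a wide range of levels, led by the housekeeping regulatory subunit PRKAR1A at 181 ± 1.87 CPM and the main catalytic subunit PRKACA at 150.00 ± 4.55 CPM (mean ± SD, n = 3 libraries for each mean here). The kit reads the 3′ end of each transcript, so these counts are not divided by length. AKAP12, a scaffold protein also called gravin, followed at 68.7 ± 2.63 CPM, then PRKAR2A, the widespread type II regulatory subunit, at 33.3 ± 1.92 CPM and the inhibitor PKIG at 27.1 ± 1.49 CPM. PRKAR2B (14.1 to 18.5 CPM), PRKACB (13.5 to 19.2 CPM) and PKIA (11.8 to 15.1 CPM) had overlapping ranges over libraries and cannot be put in order. PRKAR1B, a type I regulatory subunit best known from brain, was at 8.80000 to 10.4 CPM, and PKIB was lowest at 5.07 to 7.48 CPM. Per library the lowest counts were 35 for PKIA, 12 for PKIB, 31 for PKIG, 31 for PRKACB and 18 for PRKAR1B, against at least 69 for the other 5 genes, so the first 5 have the larger counting error. All 10 genes passed the filter on low counts in every fit.

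The 3 inhibitor mRNAs lay in the light part of the gradient, whereas the catalytic and 3 of 4 regulatory subunit mRNAs were higher in the high than in the low fraction. In control cells 8.34, 6.79 and 6.36 CPM of PKIA in the high fraction stood against 35.9, 37.8 and 36.9 CPM in the low fraction, a log2 difference (high minus low) of -2.42 (SE 0.14, edgeR adjusted p = 8.03e-08). PKIB had 4.23, 4.44 and 3.995 CPM in the high fraction against 19.9, 16.2 and 16.5 CPM in the low fraction, with a log2 difference of -2.12 (SE 0.18, edgeR adjusted p = 1.34e-06). For PKIG the high fraction held 11.2, 9.15 and 14.7 CPM against 63.3, 96.6 and 77.7 CPM in the low fraction, a log2 difference of -2.85 (SE 0.19, edgeR adjusted p = 1.95e-07). These 3 genes code for short peptides, and their differences lay at the 2.83, 3.87 and 1.52 percentile of all 11862 genes tested, near the light end.

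The log2 difference was 1.38 (SE 0.13, edgeR adjusted p = 2.26e-06) for PRKAR2A and 1.27 (SE 0.12, edgeR adjusted p = 3.61e-06) for PRKAR1A, both towards heavy polysomes. The catalytic subunits were also higher in the high fraction, PRKACA by 0.78 (SE 0.12, edgeR adjusted p = 0.000184) and PRKACB by 0.72 (SE 0.21, edgeR adjusted p = 0.0108) on the log2 scale. PRKAR2B differed by 0.48 (SE 0.16, edgeR adjusted p = 0.0187). Among all genes tested PRKAR2A and PRKAR1A lay at the 94.5 and 93 percentile, PRKACA and PRKACB at the 80.9 and 79.1, and PRKAR2B at the 70.4. Of all genes, 31.8% were called higher in the high fraction. The PRKAR2B call was lost without high fraction control C or low fraction control C, and its adjusted p ran from 0.00268 to 0.0832 over 10 alternative settings. PRKAR1B at -0.43 (SE 0.20, edgeR adjusted p = 0.0736) and AKAP12 at 0.20 (SE 0.14, edgeR adjusted p = 0.219) did not pass. The PRKAR1B difference passed without low fraction control C or high fraction control C, and its adjusted p ran from 0.0327 to 0.234 over 10 alternative settings. The AKAP12 difference passed without low fraction control B, and its adjusted p ran from 0.0208 to 0.615 over 10 alternative settings. In all, 8 of 10 members were called, where 63.6% of all genes were.

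**Figure D1:**
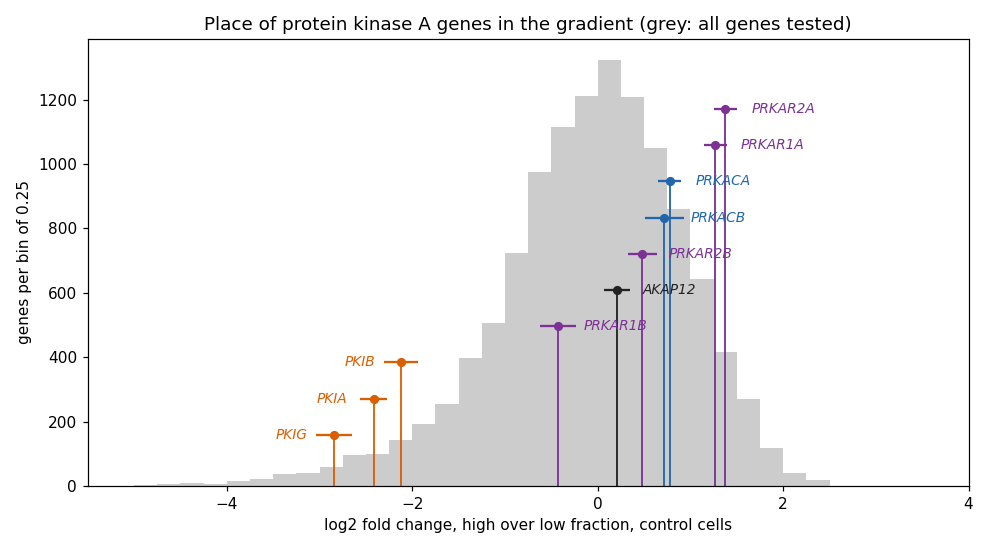
Position of the 10 genes in the polysome gradient of control cells: the x axis is the log2 difference between the high and the low fraction (3 libraries each), and the grey histogram gives the number of genes per bin on the y axis over all 11862 genes tested. Labelled lines mark the members, with heights set only to keep the labels apart, and PKIA, PKIB and PKIG stand at the light end, between -2.85 and -2.12.

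Each line was compared with control within a fraction, and a gene was called at a Benjamini-Hochberg adjusted p under 0.05 over all genes tested. In total RNA 2 of 10 members were called in isoswitch (4.05% of all genes), 1 in UAU (0.914% of all genes; the gene is PKIA, chosen for it, and nothing is read from this count) and 3 in GAUi (10.1% of all genes). In the low fraction 2 members were called in isoswitch (2.58% of all genes), 1 in UAU (0.691%) and 1 in GAUi (3.4%). In the high fraction 3 members were called in isoswitch (11% of all genes), 3 in UAU (28.7%) and 4 in GAUi (10.1%). The UAU call in the low fraction is again PKIA, and nothing is read from that count either. PKIA is also among the calls of isoswitch in total RNA and of UAU and GAUi in the high fraction. The UAU count in the high fraction is close to the share of all genes there. The 3 comparisons of a fraction share their control libraries. Median log2 fold changes over the 10 members lay between -0.21 and 0.07 in these 9 comparisons, beside medians over all genes that stayed within 0.01 of 0. Since bulk RNA was measured, fewer cells of a kind and less RNA per cell cannot be told apart. A lack of overlap between libraries was common over all genes. Against control it held for 26.1% to 30.1% of genes in total RNA, 16.4% to 23.2% in the low and 29.7% to 39.1% in the high fraction. Between isoswitch and GAUi it held for 15.4%, 16.2% and 35.1% of genes in the same order, and between isoswitch and UAU for 27.4%, 22.6% and 49.2%.

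**Figure D2:**
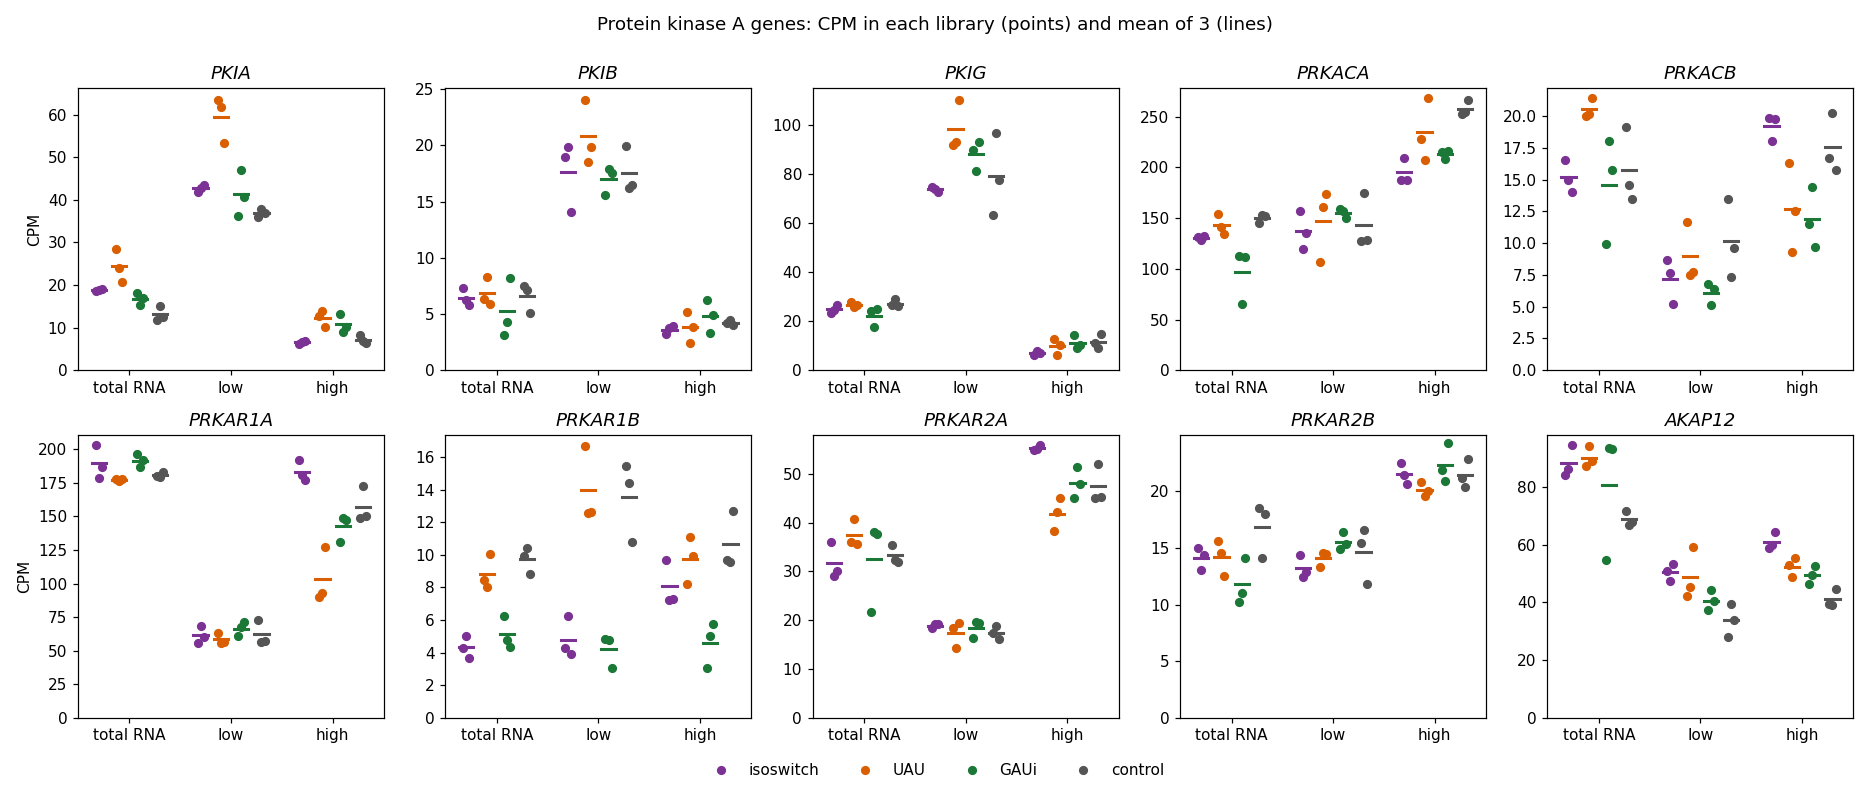
Level of each of the 10 genes in CPM on the y axis (linear scale) for the isoswitch, UAU, GAUi and control lines in total RNA, the low fraction and the high fraction, with 1 point per library and a bar at the mean of 3 libraries. The PRKAR1B points of isoswitch and GAUi lie below all control points in total RNA and in the low fraction.

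**Figure D3:**
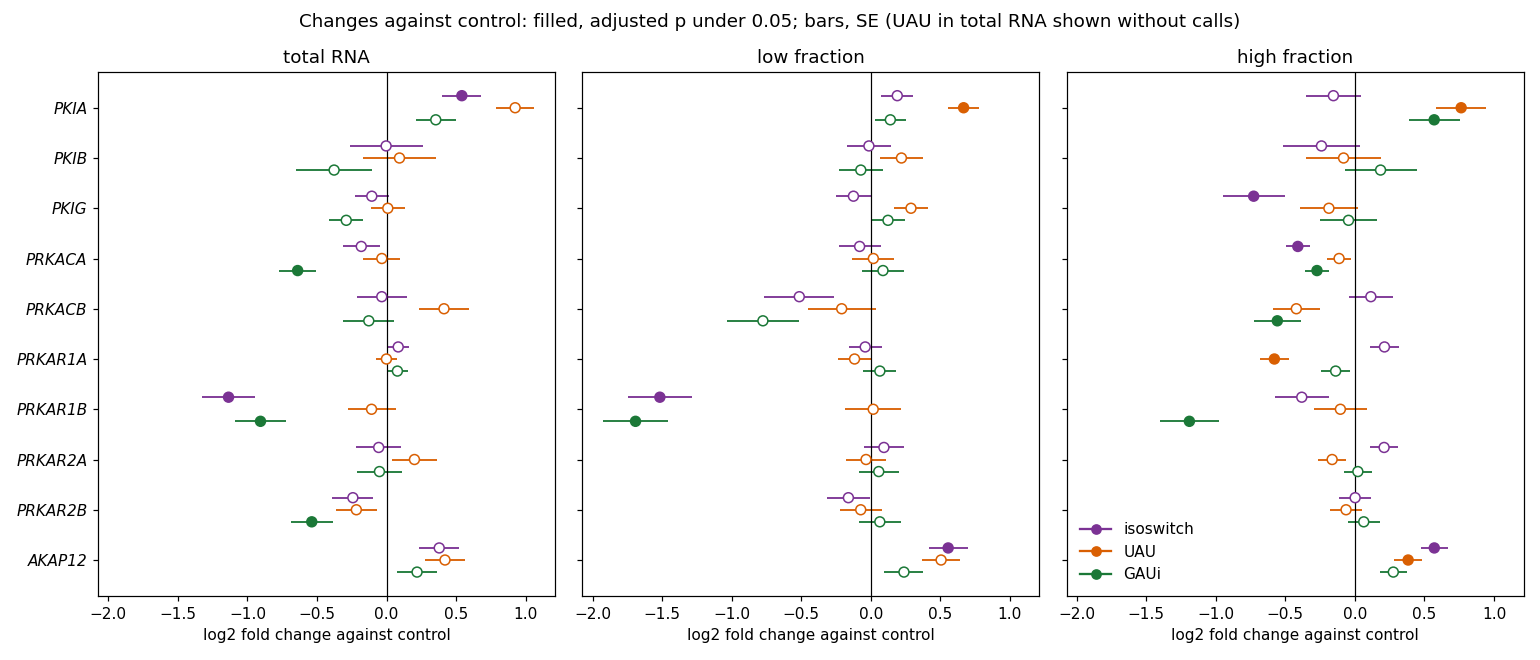
Log2 fold change against control of each gene in isoswitch, UAU and GAUi, by fraction, with bars of 1 SE from the edgeR fit of the 12 libraries of a fraction. Filled points passed an adjusted p of 0.05, and the UAU points in total RNA are drawn hollow with no call because PKIA was chosen on that comparison. PRKAR1B reaches the lowest value, -1.69 in GAUi in the low fraction.

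PKIA, the inhibitor peptide on chromosome 8 (78516340 to 78605267, GRCh38.p14), was higher in UAU than in control in all 3 kinds of RNA. In isoswitch it was above control in total RNA, and in heavy polysomes it was below both UAU and GAUi. Total RNA held 18.6, 18.9 and 19.03 CPM in isoswitch, 28.4, 24.02 and 20.7 CPM in UAU and 18.1, 15.3 and 16.9 CPM in GAUi, against 11.8, 15.1 and 12.4 CPM in control. All UAU and all isoswitch libraries lay above all control libraries. The UAU difference on which the gene was picked was 0.92 on the log2 scale. With the same control libraries, the log2 fold change of isoswitch was 0.54 (SE 0.14, edgeR adjusted p = 0.0353) and that of GAUi was 0.35 (SE 0.14, edgeR adjusted p = 0.121). The isoswitch call was lost without isoswitch A, B or C or control A or C, and its adjusted p ran from 0.0017 to 0.177 over 11 alternative settings. Isoswitch against GAUi, which shares no library with the comparison that picked the gene, gave 0.19 (SE 0.14, edgeR adjusted p = 0.598) in total RNA.

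The low fraction held PKIA at 41.9, 42.8 and 43.5 CPM in isoswitch, 63.5, 61.7 and 53.3 CPM in UAU and 36.3, 46.9 and 40.8 CPM in GAUi, against 35.9, 37.8 and 36.9 CPM in control. The UAU libraries were the highest there and did not overlap any other line. UAU differed from control by 0.67 (SE 0.11, edgeR adjusted p = 0.0122) on the log2 scale and isoswitch from UAU by -0.48 (SE 0.11, edgeR adjusted p = 0.0165). The UAU call was lost without UAU B and with only the libraries of those lines in the fit, and its adjusted p ran from 7.91e-05 to 0.127 over 11 alternative settings. The call of isoswitch against UAU was lost without isoswitch A or C or UAU A or B, and its adjusted p ran from 0.0075 to 0.0816 over 11 alternative settings. Isoswitch differed from GAUi by 0.05 (SE 0.11, edgeR adjusted p = 0.96), and from control by 0.19 (SE 0.11, edgeR adjusted p = 0.464).

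Heavy polysomes held PKIA at 6.23, 6.73 and 6.76 CPM in isoswitch, 12.8, 13.9 and 10.2 CPM in UAU and 13.2, 9.01 and 10.2 CPM in GAUi, against 8.34, 6.79 and 6.36 CPM in control. The UAU and GAUi libraries lay above all control libraries, and the isoswitch libraries lay within or just below the control range. The log2 fold change was 0.76 (SE 0.18, edgeR adjusted p = 0.00223) for UAU and 0.57 (SE 0.18, edgeR adjusted p = 0.0448) for GAUi, against -0.15 (SE 0.20, edgeR adjusted p = 0.688) for isoswitch. The GAUi call was lost without GAUi A or C or control A, B or C and with DESeq2, and its adjusted p ran from 0.0342 to 0.267 over 11 alternative settings. Isoswitch was lower than UAU, at a log2 difference of -0.92 (SE 0.19, edgeR adjusted p = 0.000271), and lower than GAUi, at -0.72 (SE 0.19, edgeR adjusted p = 0.0102), with no overlap between the libraries in either case. The call against GAUi was lost without isoswitch A or GAUi A, and its adjusted p ran from 0.0038 to 0.0952 over 11 alternative settings. Summed over 12 snoRNA host transcripts, which sit in light fractions and were listed after results of these data were known, the high fraction held 458 to 623 CPM in isoswitch, 774 to 952 in UAU and 783 to 866 in GAUi, against 678 to 726 in control. The low fraction held 8010 to 9140 CPM of them in isoswitch, 8370 to 9390 in UAU and 9770 to 10300 in GAUi, against 8340 to 9380 in control. The part of this in the high-fraction values of PKIA, PKIB and PKIG was not tested. Nor was its part in those of the other members, PRKAR1A and PRKACB included, or in the high-fraction interactions and high-to-total ratios below.

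The strand setting of the counting is not given in the sources used here, so reads of PKIA and of its antisense gene PKIA-AS1, listed with 0 to 7 counts per library, cannot be told apart with certainty. LOC105375911, a non-coding RNA gene that spans PKIA (78397172 to 78665979), is not among the genes counted. Its reads cannot be told apart from those of PKIA either. Over the 12 group means, centred within each fraction, the genes most like PKIA among 11498 were TBPL1 (Pearson r = 0.966), LOC101927027 (0.954), CMTM3 (0.944), UBTD2 (0.943) and TMCC1 (0.936). Among the members AKAP12 had r = 0.448 with PKIA and PRKAR1A had r = -0.674. These are descriptions over 12 points that share their libraries.

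PKIG, the most abundant inhibitor in control total RNA, was lower in heavy polysomes of isoswitch cells. Its high-fraction level was 6.38, 7.67 and 6.94 CPM in isoswitch, 12.6, 6.26 and 10.2 CPM in UAU and 14.2, 8.87 and 10.3 CPM in GAUi, against 11.2, 9.15 and 14.7 CPM in control. The isoswitch libraries lay below all GAUi and control libraries, and UAU overlapped every line. The log2 fold change of isoswitch was -0.73 (SE 0.22, edgeR adjusted p = 0.0336) against control and -0.68 (SE 0.23, edgeR adjusted p = 0.0404) against GAUi. The call against control was lost without isoswitch A or C or control A or C, and its adjusted p ran from 0.00293 to 0.185 over 11 alternative settings. The call against GAUi was lost without isoswitch A, B or C or GAUi A or C, and its adjusted p ran from 0.00568 to 0.258 over 11 alternative settings. In total RNA PKIG ranged from 17.7 to 28.8 CPM and in the low fraction from 63.3 to 109.97 CPM over the 12 libraries, and no comparison there passed. The isoswitch libraries lay below the UAU libraries in the low fraction, at -0.41 (SE 0.12, edgeR adjusted p = 0.0632). That difference passed with DESeq2 and with no filter on low counts and with only the libraries of those lines in the fit, and its adjusted p ran from 0.0147 to 0.242 over 11 alternative settings. UAU against control there, at 0.29, passed without control B, and its adjusted p ran from 0.0386 to 0.615 over 11 alternative settings. Isoswitch against UAU in the high fraction, at -0.54, passed without UAU B and with no filter on low counts, and its adjusted p ran from 0.0118 to 0.369 over 11 alternative settings. PKIB, the least abundant inhibitor, ranged from 3.17 to 8.27 CPM in total RNA, 14.04 to 24.04 CPM in the low fraction and 2.42 to 6.28 CPM in the high fraction, and passed in no comparison between lines. In GAUi total RNA it differed from control by -0.38 (SE 0.27, edgeR adjusted p = 0.409). That difference passed without GAUi C, and its adjusted p ran from 0.0446 to 0.846 over 11 alternative settings. Its log2 fold change was -0.82 without GAUi C, and ran up to -0.09.

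PRKACA, which codes for the main catalytic subunit (chromosome 19, 14091688 to 14117762), was lower than control in total RNA of GAUi, and in heavy polysomes of both GAUi and isoswitch. In total RNA it had 131, 128 and 132 CPM in isoswitch, 154, 142 and 135 CPM in UAU and 113, 65.4 and 112 CPM in GAUi, against 145, 153 and 152 CPM in control. GAUi B was far below GAUi A and C, and all 3 lay below every control library. GAUi had a log2 fold change of -0.64 (SE 0.13, edgeR adjusted p = 0.00523) and isoswitch one of -0.18 (SE 0.13, edgeR adjusted p = 0.563). The GAUi call was lost with only the libraries of those lines in the fit, and its adjusted p ran from 5.65e-08 to 0.0581 over 11 alternative settings. The isoswitch difference passed with only the libraries of those lines in the fit, and its adjusted p ran from 0.0176 to 0.743 over 11 alternative settings. Isoswitch lay above GAUi in total RNA by 0.46 (SE 0.13, edgeR adjusted p = 0.151, DESeq2 adjusted p = 0.0491). The libraries did not overlap, as for 15.4% of all genes in that comparison. The high-fraction level of PRKACA was 188, 209.7 and 187 CPM in isoswitch, 228, 208 and 268 CPM in UAU and 215, 208 and 216 CPM in GAUi, against 252, 254 and 266 CPM in control. The GAUi and isoswitch libraries all lay below the control libraries there. Against control it was -0.41 (SE 0.09, edgeR adjusted p = 0.00222) in isoswitch and -0.27 (SE 0.09, edgeR adjusted p = 0.0429) in GAUi, and -0.11 (SE 0.09, edgeR adjusted p = 0.351) in UAU. The GAUi call in the high fraction was lost without GAUi A, B or C or control A, B or C, and its adjusted p ran from 0.00783 to 0.126 over 11 alternative settings. Isoswitch was lower than UAU, at -0.30 (SE 0.09, edgeR adjusted p = 0.00732), although the libraries overlapped. That call was lost without UAU C, and its adjusted p ran from 0.00272 to 0.0586 over 11 alternative settings. UAU against control passed without UAU C, and its adjusted p ran from 0.0341 to 0.821 over 11 alternative settings. In the low fraction PRKACA ranged from 107 to 175 CPM over 12 libraries, and no comparison passed.

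PRKACB, the second catalytic subunit (chromosome 1, 84078079 to 84238498), was called between lines only in the high fraction. There it had 19.9, 18.01 and 19.7 CPM in isoswitch, 16.3, 9.29 and 12.5 CPM in UAU and 11.49, 14.4 and 9.67 CPM in GAUi, against 16.7, 20.2 and 15.8 CPM in control. The isoswitch libraries lay above all GAUi and UAU libraries, and all GAUi libraries lay below the control libraries. Against control the log2 fold change was -0.56 (SE 0.17, edgeR adjusted p = 0.0338) in GAUi, -0.42 (SE 0.17, edgeR adjusted p = 0.0594) in UAU and 0.11 (SE 0.16, edgeR adjusted p = 0.712) in isoswitch. The GAUi call was lost without GAUi A or C or control A or B, and its adjusted p ran from 0.00901 to 0.165 over 11 alternative settings. Isoswitch was above GAUi by 0.67 (SE 0.17, edgeR adjusted p = 0.00778) and above UAU by 0.54 (SE 0.17, edgeR adjusted p = 0.0114). The call against GAUi was lost without GAUi C, and its adjusted p ran from 0.000503 to 0.0568 over 11 alternative settings. The call against UAU was lost without UAU B, and its adjusted p ran from 0.00197 to 0.079 over 11 alternative settings. UAU against control passed without UAU A and with no filter on low counts, and its adjusted p ran from 0.0135 to 0.273 over 11 alternative settings. In the low fraction GAUi had 6.804, 5.15 and 6.402 CPM, below all control libraries with 13.5, 7.38 and 9.61 CPM, at -0.78 (SE 0.26, edgeR adjusted p = 0.108). That difference passed without control B and with no filter on low counts, and its adjusted p ran from 0.0212 to 0.373 over 11 alternative settings. Isoswitch against UAU in total RNA was at -0.45 (SE 0.18, edgeR adjusted p = 0.207). It passed with only the libraries of those lines in the fit, and its adjusted p ran from 0.00994 to 0.461 over 11 alternative settings.

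PRKAR1B, a type I regulatory subunit (chromosome 7, 549197 to 728934), was lower in both lines with CRISPR interference against the GAU tRNA, in total RNA and in the low fraction. In total RNA it had 4.31, 5.04 and 3.67 CPM in isoswitch, 8.48, 8.01 and 10.03 CPM in UAU and 6.22, 4.795 and 4.34 CPM in GAUi, against 9.93, 10.4 and 8.8001 CPM in control. No isoswitch or GAUi library reached the control range. The log2 fold change was -1.14 (SE 0.19, edgeR adjusted p = 0.00151) in isoswitch and -0.91 (SE 0.18, edgeR adjusted p = 0.00421) in GAUi, and isoswitch was lower than UAU, at -1.03 (SE 0.19, edgeR adjusted p = 0.00446). Its low-fraction level was 4.26, 6.23 and 3.89 CPM in isoswitch, 16.7, 12.6 and 12.7 CPM in UAU and 4.86, 4.78 and 3.03 CPM in GAUi, against 15.5, 14.4 and 10.8 CPM in control. There isoswitch differed from control by -1.52 (SE 0.23, edgeR adjusted p = 0.00108), GAUi from control by -1.69 (SE 0.23, edgeR adjusted p = 0.00051) and isoswitch from UAU by -1.53 (SE 0.23, edgeR adjusted p = 0.000874), with no overlap. UAU differed from control by -0.11 in total RNA and by 0.02 (SE 0.20, edgeR adjusted p = 0.982) in the low fraction.

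In heavy polysomes PRKAR1B had 9.71, 7.203 and 7.29 CPM in isoswitch, 8.23, 11.1 and 9.94 CPM in UAU and 3.06, 5.01 and 5.74 CPM in GAUi, against 9.71, 9.56 and 12.7 CPM in control. Here GAUi alone was called against control, at -1.19 (SE 0.21, edgeR adjusted p = 0.000628), and isoswitch differed from control by -0.38 (SE 0.20, edgeR adjusted p = 0.222). Isoswitch was above GAUi by 0.81 (SE 0.23, edgeR adjusted p = 0.0159). That call was lost without isoswitch A or GAUi A, and its adjusted p ran from 0.00424 to 0.132 over 11 alternative settings. Each of the calls of PRKAR1B against control, in GAUi in all 3 kinds of RNA and in isoswitch in total RNA and the low fraction, was kept under all 11 alternative settings run for it. Counts were low, 18 to 104 per library, and the gene overlaps PRKAR1B-AS1, PRKAR1B-AS2, LOC105375119 and DNAAF5 (92 to 600 counts). With the strand setting not given, reads from the shared stretches cannot be told apart from its own. DNAAF5 (726699 to 786475) shares only the stretch up to 728934, at the end where PRKAR1B transcription starts, and the counts hold 3′ ends.

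PRKAR1A, the most abundant regulatory subunit (chromosome 17, 68413623 to 68551316), was lower in heavy polysomes of UAU than of control, and higher in those of isoswitch than of UAU or GAUi. Heavy polysomes held it at 192, 181 and 177 CPM in isoswitch, 90.3, 93.3 and 127 CPM in UAU and 131, 149 and 148 CPM in GAUi, against 149, 173 and 150.2 CPM in control. The 3 UAU libraries were the lowest of the 12 and the 3 isoswitch libraries the highest. The log2 fold change against control was -0.58 (SE 0.10, edgeR adjusted p = 0.000182) in UAU, 0.21 (SE 0.10, edgeR adjusted p = 0.187) in isoswitch and -0.14 (SE 0.10, edgeR adjusted p = 0.426) in GAUi. Isoswitch was above UAU by 0.79 (SE 0.10, edgeR adjusted p = 9.88e-07), with no overlap, and above GAUi by 0.35 (SE 0.10, edgeR adjusted p = 0.0196). The call against GAUi was lost without isoswitch A or GAUi A, and its adjusted p ran from 0.00237 to 0.119 over 11 alternative settings. In total RNA PRKAR1A ranged from 176 to 203 CPM and in the low fraction from 55.5 to 72.9 CPM, and no line was called against another there. It overlaps WIPI1 (95 to 209 counts per library), ARSG (0 to 15) and FAM20A (0 to 3).

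The type II subunits were called in 1 comparison of lines each. PRKAR2A, on chromosome 3 (48744591 to 48847874), had 54.9, 55.1 and 55.8 CPM in the high fraction of isoswitch and 38.3, 42.2 and 45.1 CPM in UAU. The log2 difference was 0.37 (SE 0.10, edgeR adjusted p = 0.00357). The libraries did not overlap, as for 49.2% of all genes in that comparison, and PRKAR2A was called in no other comparison of lines. PRKAR2B, on chromosome 7 (107044705 to 107161811), had 10.3, 10.98 and 14.1 CPM in GAUi total RNA against 18.5, 14.1 and 18 CPM in control. The GAUi libraries all lay below the control libraries, though the highest GAUi library and the lowest control library nearly met, and the log2 fold change was -0.54 (SE 0.15, edgeR adjusted p = 0.0282). That call was lost without GAUi A or B or control A or C and with only the libraries of those lines in the fit, and its adjusted p ran from 0.0132 to 0.127 over 11 alternative settings. In the high fraction PRKAR2B stayed between 19.6 and 24.3 CPM over all 12 libraries.

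Cyclic AMP response elements, the sites of the transcription factor CREB, were looked for in the 250 bases before each RefSeq transcript start (GRCh38.p14), for 28 such windows of 9 members. The core site searched was TGACG on either strand (CGTCA on the other), and the full site is its palindrome, in which the core sites of both strands overlap. A core site was found in 7 of the 28 windows and the full site in 1, where 21.2% and 1.65% of all 35116 windows held them. The windows of 3 subunits called between lines are printed 5′ to 3′, with matches in capitals; PRKAR1A, lower in UAU heavy polysomes, had the full site, PRKACA, lower in GAUi total RNA, had 1 core site, and PRKAR1B, lower in GAUi and isoswitch, had none in the window shown. They were picked after the matches were seen: a core site stood in 2 of 5 windows of PRKAR1A, 1 of 2 of PRKACA and 1 of 6 of PRKAR1B, the last not shown. A match is a description of letters and not of a bound site.
PRKAR1A, chr17:68512180-68512429, plus strand: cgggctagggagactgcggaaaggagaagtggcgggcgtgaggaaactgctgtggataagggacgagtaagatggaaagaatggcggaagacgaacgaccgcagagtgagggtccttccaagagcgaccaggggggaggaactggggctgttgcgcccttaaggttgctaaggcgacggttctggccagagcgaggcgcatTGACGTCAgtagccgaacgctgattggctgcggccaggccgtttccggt
PRKACA, chr19:14117763-14118012, minus strand: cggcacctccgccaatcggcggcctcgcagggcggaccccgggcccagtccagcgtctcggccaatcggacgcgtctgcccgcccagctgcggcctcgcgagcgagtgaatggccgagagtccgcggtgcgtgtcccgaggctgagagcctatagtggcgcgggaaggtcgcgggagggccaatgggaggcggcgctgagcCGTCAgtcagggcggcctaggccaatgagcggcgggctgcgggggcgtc
PRKAR1B, chr7:727677-727926, minus strand: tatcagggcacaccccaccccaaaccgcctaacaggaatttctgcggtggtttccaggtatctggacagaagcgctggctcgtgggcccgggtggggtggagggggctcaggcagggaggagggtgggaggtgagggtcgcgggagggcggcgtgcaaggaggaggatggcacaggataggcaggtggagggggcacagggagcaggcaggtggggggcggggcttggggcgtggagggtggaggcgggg

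AKAP12, a scaffold that anchors the kinase near the plasma membrane (chromosome 6, 151239967 to 151358559), was higher in heavy polysomes of isoswitch and UAU than of control. Its level in the high fraction was 58.9, 59.97 and 64.4 CPM in isoswitch, 52.97, 48.7 and 55.4 CPM in UAU and 46.3, 49.3 and 52.4 CPM in GAUi, against 39.3, 38.95 and 44.7 CPM in control. All isoswitch, UAU and GAUi libraries lay above the control libraries. Against control the log2 fold change was 0.57 (SE 0.10, edgeR adjusted p = 0.000256) in isoswitch, 0.38 (SE 0.10, edgeR adjusted p = 0.00461) in UAU and 0.28 (SE 0.10, edgeR adjusted p = 0.0731) in GAUi. Isoswitch was above GAUi by 0.29 (SE 0.10, edgeR adjusted p = 0.0372). That call was lost without isoswitch A, B or C or GAUi A, B or C and with no filter on low counts, and its adjusted p ran from 0.0209 to 0.159 over 11 alternative settings. GAUi against control passed without control C, and its adjusted p ran from 0.0499 to 0.224 over 11 alternative settings. Isoswitch was also above control in the low fraction, by 0.56 (SE 0.14, edgeR adjusted p = 0.0368). That call was lost without isoswitch A, B or C or control A or C and with only the libraries of those lines in the fit, and its adjusted p ran from 0.00188 to 0.152 over 11 alternative settings. UAU also lay above all control libraries there, at 0.51 (SE 0.14, edgeR adjusted p = 0.1). The UAU difference passed without control B and with no filter on low counts, and its adjusted p ran from 0.0104 to 0.354 over 11 alternative settings. In total RNA AKAP12 had 84.05, 86.3 and 94.6 CPM in isoswitch, 87.3, 94.02 and 88.995 CPM in UAU and 54.8, 93.6 and 93.3 CPM in GAUi, against 71.7, 66.7 and 67.9 CPM in control. GAUi A stood apart from GAUi B and C. Isoswitch differed from control by 0.38 (SE 0.14, edgeR adjusted p = 0.169) there, and GAUi by 0.22 (SE 0.14, edgeR adjusted p = 0.355). UAU differed from control by 0.42 there, and all UAU and isoswitch libraries lay above the control libraries. The isoswitch difference passed with no filter on low counts and with only the libraries of those lines in the fit, and its adjusted p ran from 4.53e-05 to 0.418 over 11 alternative settings. The GAUi difference passed without GAUi A, and its adjusted p ran from 0.000591 to 0.763 over 11 alternative settings. Without GAUi A its log2 fold change was 0.45. The level of AKAP12 in heavy polysomes relative to total RNA was not called as changed against control. That log2 change was 0.21 (SE 0.18, edgeR adjusted p = 0.991) in isoswitch and -0.01 (SE 0.18, edgeR adjusted p = 0.982) in UAU.

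Isoswitch was set against each line with a single change. Against GAUi, which it differs from by the overexpressed tRNA, 0 of 10 members were called in total RNA (0.113% of all genes). There 1 member, PRKACA, had an unadjusted p under 0.05 and was called by DESeq2. In the low fraction 0 were called (0% of all genes, 0 of 12445 by edgeR, with 890 at an unadjusted p under 0.05 and 44 by DESeq2), and of the members 1 had an unadjusted p under 0.05 and 0 were called by DESeq2. In the high fraction 6 of 10 were called (15.8% of all genes): PRKACB, PRKAR1A, PRKAR1B and AKAP12 higher, PKIA and PKIG lower. Against UAU, which it differs from by the CRISPR interference target, 1 member was called in total RNA (3.42% of all genes), 2 in the low fraction (4.25%) and 5 in the high fraction (41.6%). The last of these is close to the share of all genes. PKIA, picked for its level in UAU, is among the members called in the low and in the high fraction.

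The effect of the UAU tRNA was compared between GAUi and eGFP cells as an interaction, the log2 difference of isoswitch and GAUi minus that of UAU and control. In the high fraction 4 of 10 members were called (35.7% of all genes, so the members' share is near that of all genes). PKIA had an interaction of -1.49 (SE 0.26, edgeR adjusted p = 7.71e-05): UAU overexpression went with a log2 fold change of -0.72 in GAUi cells and 0.76 in eGFP cells. PKIA was picked for its level in UAU, which enters this difference, so nothing is read from its interaction p-value. For PRKACB the interaction was 1.09 (SE 0.24, edgeR adjusted p = 0.000744), with 0.67 in GAUi cells and -0.42 in eGFP cells. PRKAR1A had 0.93 (SE 0.15, edgeR adjusted p = 1.96e-05), with 0.35 in GAUi cells and -0.58 in eGFP cells. PRKAR1B had 0.91 (SE 0.30, edgeR adjusted p = 0.0173), with 0.81 in GAUi cells and -0.10 in eGFP cells. The PRKAR1B call was lost without isoswitch A, UAU A or GAUi A, and its adjusted p ran from 0.00849 to 0.0766 over 16 alternative settings. PRKAR2A missed the threshold at 0.35 (SE 0.14, edgeR adjusted p = 0.0519). It passed without UAU C or GAUi B or control A or C, and its adjusted p ran from 0.0215 to 0.146 over 16 alternative settings.

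In the low fraction 0 members had an interaction (0.233% of all genes by edgeR), with 2 at an unadjusted p under 0.05 and 1 by DESeq2. That gene was PKIA, at -0.62 (SE 0.16, edgeR adjusted p = 0.0992) and a DESeq2 adjusted p of 0.0285, and it also passed with no filter on low counts (edgeR adjusted p = 0.0491). Since PKIA was picked for its level in UAU, nothing is read from these p-values either. For PKIG the interaction was -0.54 (SE 0.17, edgeR adjusted p = 0.19). The PKIG interaction passed without control B, and its adjusted p ran from 0.0173 to 0.41 over 16 alternative settings. In total RNA 0 members were called (0.0243% of all genes by edgeR), with 3 at an unadjusted p under 0.05 and 0 by DESeq2.

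**Figure D4:**
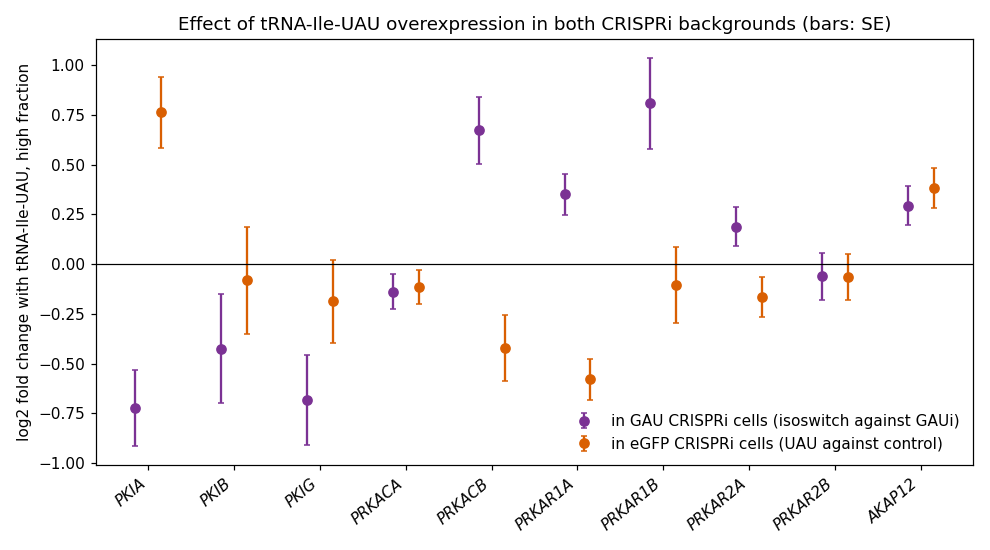
Log2 fold change with UAU tRNA overexpression in the high fraction, in GAUi cells (isoswitch against GAUi) and in eGFP cells (UAU against control), for each of the 10 genes, with bars of 1 SE. PKIA stands at -0.72 in GAUi cells and at 0.76 in eGFP cells, and PRKACB, PRKAR1A and PRKAR1B have the opposite order.

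The high-to-total ratio asks whether the level in heavy polysomes changed beyond the level in total RNA. In UAU against control 2 of 10 members were called (7.32% of all genes), both lower: PRKACB at -0.81 (SE 0.25, edgeR adjusted p = 0.0453) and PRKAR1A at -0.55 (SE 0.14, edgeR adjusted p = 0.012). For PRKACB, UAU differed from control by 0.41 in total RNA and by -0.42, not called, in the high fraction, so both enter its ratio. The PRKACB call was lost without high fraction UAU B or C, total RNA UAU A, B or C, high fraction control A or B or total RNA control B or C, and its adjusted p ran from 0.00887 to 0.134 over 16 alternative settings. The PRKAR1A call was lost without high fraction UAU A, and its adjusted p ran from 0.000205 to 0.0551 over 16 alternative settings. In GAUi 0 members were called (0.718% of all genes by edgeR), with 2 at an unadjusted p under 0.05 and 0 by DESeq2. In isoswitch 0 members were called (0% of all genes by edgeR and 0 of 12540 by DESeq2), with 3 members and 648 genes at an unadjusted p under 0.05. The isoswitch ratio was -0.68 (SE 0.24, edgeR adjusted p = 0.772) for PKIA and 0.77 (SE 0.28, edgeR adjusted p = 0.803) for PRKAR1B.

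Other genes of the pathway were followed in 8 lists of 146 genes: cyclases and G protein subunits, receptors, phosphodiesterases, other anchors, other cyclic AMP effectors, the CREB family, cyclic AMP response genes and kinase substrates. In total RNA 101 of them were tested. In isoswitch 1 was higher and 3 lower than control, in UAU 1 and 0, and in GAUi 5 and 5, which is 3.96%, 0.99% and 9.9% of those tested and close to the shares of all genes. In the low fraction, with 101 tested, isoswitch had 1 higher and 2 lower (2.97%, beside 2.58% of all genes), UAU 1 and 1 (1.98%, beside 0.691%), and GAUi 4 and 3 (6.93%, beside 3.4%). In the high fraction, with 98 tested, isoswitch had 8 higher and 9 lower (17.3%, beside 11% of all genes), UAU 10 and 16 (26.5%, beside 28.7%), and GAUi 5 and 3 (8.16%, beside 10.1%). The median log2 fold change of the 146-gene set, over those tested, lay between -0.03 and 0.06 in these 9 comparisons.

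By list, the calls of UAU in the high fraction were spread as follows. Among cyclases and G protein subunits 2 of 9 tested were higher and 1 lower. Receptors had 0 higher and 2 lower of 11, phosphodiesterases 1 higher and 1 lower of 10 and the other anchors 1 higher and 4 lower of 18. The other effectors had 1 higher and 0 lower of 4, the CREB family 2 higher and 1 lower of 11 and the cyclic AMP response genes 0 higher and 3 lower of 13. Among the kinase substrates 3 of 22 tested were higher and 4 lower. Over all genes in that comparison 13.1% were higher and 15.5% lower.

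The calls named next were among the 3 largest of their list in that comparison and were kept under every alternative run. In GAUi total RNA GNAS, the stimulatory G protein subunit that activates adenylyl cyclase, was higher by 0.63 (SE 0.11, edgeR adjusted p = 0.00108) and LPAR1, a lysophosphatidic acid receptor, by 0.52 on the log2 scale. ID1, read here as a cyclic AMP response gene, was at -0.50 in GAUi total RNA and -0.53 in the isoswitch high fraction, and GLI3, a Hedgehog pathway transcription factor that the kinase phosphorylates, was at -0.71 in GAUi total RNA. PRKX, a kinase related to the catalytic subunits, was higher in the high fraction of UAU (0.56) and of GAUi (0.60).

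Among the other anchors, AKAP9, which tethers the kinase at the centrosome and Golgi, was at -0.56 in the isoswitch high fraction, and AKAP8, a nuclear anchor, was at -0.58 and ACBD3 at -0.54 in the UAU high fraction. In the UAU high fraction GNAI3, an inhibitory G protein subunit, was at -0.54 and ADCY3, an adenylyl cyclase, at 0.49. POPDC3, of a family of cyclic AMP binding membrane proteins, was at -0.89 in the isoswitch high fraction. CREB3L2, a membrane-bound relative of CREB, was at -0.47 in UAU and -0.58 in GAUi. VIM, the intermediate filament vimentin, was at 0.43 in isoswitch and -0.47 in UAU, and MYL9, a myosin light chain, was at 0.40 in UAU, all log2 fold changes against control in heavy polysomes.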

How the data were processed

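RNA was measured in 36 libraries (4 lines, 3 kinds of RNA, 3 libraries each) with the Lexogen QuantSeq 3′ kit and 500 ng of input, per the labels. The deposited files hold raw counts, 1 value per gene symbol, not normalized. STAR, featureCounts, DESeq2 and the build hg38 are named in the submitters' processing notes, without versions, annotation or strand setting. The members and gene lists were chosen with earlier results of these data known.

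The counts were fitted with edgeR 4.0.16 (R 4.3.3): filterByExpr by group, TMM scaling, glmQLFit and glmQLFTest, with Benjamini-Hochberg adjustment over all genes tested and a threshold of 0.05. The 12 libraries of a fraction shared a fit, the ratio of the high fraction to total RNA used 24 libraries, and high against low in control cells used 6. An SE is the fold change on the log2 scale over the root of its F statistic. The steps were tested on simulated data. Alternatives were DESeq2 1.42.0, its size factors in edgeR, no filter, a block by replicate letter, only the lines compared, and leaving out each library. No molecular identifiers were used, so the spread between libraries, not counting error, is the error of a value.

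All 10 members are described. A pathway gene was named where it was among the 3 largest calls of its list against control, its mean log2 CPM was at least 1 and its libraries did not overlap between the lines. The text gives those kept under every alternative, a choice made after their values were seen. Among these, 1 item is not reported here. Libraries of the same letter did not deviate together: in none of 23 pairs of groups were all 3 correlations over 0.1, so the letters were not taken as pairs. Gene positions and promoters come from RefSeq (GRCh38.p14). Sequences of PKIA and protein sequences were not analysed here.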

Additional observations from a re-analysis of the deposited data

Results flagged for a closer look

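In the high fraction the effect of UAU tRNA overexpression differed between GAUi and eGFP cells for 4 of the 10 genes, each by the interaction test of the edgeR fit. The difference in log2 fold change, GAUi cells minus eGFP cells, was -1.49 for PKIA, 1.09 for PRKACB, 0.93 for PRKAR1A and 0.91 for PRKAR1B. Of all genes tested there, 35.7% had such a difference. PKIA was picked for its level in UAU, which enters the difference, so nothing is read from its test.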

How the results depend on the processing

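No member reversed its direction in a called comparison. Replacing TMM by DESeq2 size factors changed none of 220 member fold changes in direction or call. Counts of called members moved by over 1.5 times as follows. With DESeq2, isoswitch against GAUi in total RNA had 1 in place of 0 and the low-fraction interaction 1 in place of 0. With no filter on low counts, UAU had 2 in place of 1 in total RNA and 2 in place of 1 in the low fraction, GAUi had 2 in place of 1 in the low fraction, and isoswitch against GAUi in total RNA and the low-fraction interaction had 1 each in place of 0. With only the 2 lines compared in the fit, total RNA had 2 in UAU in place of 1, 1 in GAUi in place of 3, 4 in isoswitch in place of 2 and 3 for isoswitch against UAU in place of 1, and the low fraction had 0 in UAU in place of 1 and 1 in isoswitch in place of 2. In the main fits the 1 member called in UAU in total RNA and in the low fraction is PKIA, picked for its level in UAU. Nothing is read from how those UAU counts moved, here or with 1 library left out. With a replicate block the UAU high-to-total ratio had 1 in place of 2: PRKACB was lost at an adjusted p of 0.0506. The block also ended the call of PRKACA in GAUi heavy polysomes (0.0513) and brought the high-fraction interaction of PRKAR2A past the threshold (0.0497); it changed no other member's call.

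Leaving out 1 library at a time gave, in total RNA, 2 to 4 members for GAUi and 1 to 2 for isoswitch. For the low fraction it gave 0 to 3 for UAU, 1 to 2 for GAUi and 1 to 2 for isoswitch, and for the high fraction 3 to 4 for UAU, 1 to 3 for GAUi and 2 to 3 for isoswitch. Isoswitch against GAUi had 0 to 1 for total RNA and 1 to 5 for the high fraction, and against UAU 1 to 2 for the low and 4 to 5 for the high fraction. The interaction had 0 to 1 for total RNA, 0 to 1 for the low and 3 to 5 for the high fraction. The high-to-total ratio had 1 to 2 in UAU and 0 to 1 in GAUi, and high against low in control 8 to 9. The cause of these changes was not tested beyond the fewer libraries in each fit. The lowest count per library was 12 to 35 for PKIA, PKIB, PKIG, PRKACB and PRKAR1B.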
